A study of Mus musculus with 8 samples.

Results

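The naive pluripotency transcription factors Klf2, Klf4, Klf5, Esrrb, Tfcp2l1, Zfp42, Nr0b1, Tbx3 and Prdm14 were followed before and after differentiation of mouse embryonic stem cells (ESCs). The genes were chosen by symbol as factors known to hold ESCs in the naive state, and all 9 of them were found among the 24421 gene symbols counted. Reads came from 8 Oxford Nanopore Technologies (ONT) libraries of polyadenylated RNA, made with the Direct RNA kit, which reads the native RNA strand, or with the cDNA kit, which reads PCR-amplified copies. Direct RNA libraries were made from 500 ng of polyadenylated RNA and cDNA libraries from 50 ng, so that kit and input cannot be told apart. Undiff samples are R1 cells, a line of mouse ESCs, kept in growth medium with serum and leukaemia inhibitory factor (LIF) according to the methods of the study, although the sample labels name embryoid bodies as the tissue of both states. Day4 samples are embryoid bodies, floating aggregates of the same line, grown for 4 days without LIF and then treated for 4 days with retinoic acid (RA), at 2 µM by the methods and the design text and at 2 mM by the sample labels. LIF, aggregation, RA and time in culture thus all differ between the states and cannot be told apart, and all samples come from a single cell line. Each state and kit had 2 replicates. The study grew and treated 2 cultures of each state separately and describes using their RNA for both kits. P-values between states thus measure the spread between 2 cultures, and the kits are not independent replicates of the states. Tests between kits take libraries from the same cultures as independent.

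Naive ESCs correspond to the epiblast of the blastocyst before implantation. In them LIF acts through STAT3, and inhibition of GSK3 acts through relief of TCF7L1 repression, on a group of factors that bind many of the same enhancers as POU5F1, SOX2 and NANOG. Klf4 and Tfcp2l1 are known as targets of the STAT3 branch, Esrrb as a target that TCF7L1 represses, and Klf2, Klf4 and Klf5 as zinc finger factors with overlapping function. When ESCs leave the naive state these genes are known to be switched off early, while the core factors persist for longer.

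The promoters of the factors with the largest falls on both kits, Zfp42 and Nr0b1, and of the factor that differed most between kits, Klf2, are given here as the 250 bases before the transcription start in RefSeq on GRCm38.p6, 5′ to 3′ on the strand of the gene. The Zfp42 window lies at chr8:43307010-43307259 on the minus strand, the Nr0b1 window at chrX:86191525-86191774 on the plus strand and the Klf2 window at chr8:72318812-72319061 on the plus strand. Capitals mark matches, on either strand, to the octamer bound by POU5F1 (ATTTGCAT) or to the element of KLF and SP proteins (CCNCNCCC).
Zfp42: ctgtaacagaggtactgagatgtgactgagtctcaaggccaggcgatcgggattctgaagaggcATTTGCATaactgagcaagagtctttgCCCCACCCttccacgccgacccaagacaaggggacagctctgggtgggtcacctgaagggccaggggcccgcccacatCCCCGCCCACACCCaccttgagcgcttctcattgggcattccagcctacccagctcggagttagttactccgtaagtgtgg
Nr0b1: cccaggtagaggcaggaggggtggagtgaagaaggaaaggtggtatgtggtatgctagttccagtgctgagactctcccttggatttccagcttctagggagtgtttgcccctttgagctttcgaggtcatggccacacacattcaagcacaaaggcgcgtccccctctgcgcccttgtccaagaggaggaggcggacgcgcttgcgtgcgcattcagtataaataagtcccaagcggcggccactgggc
Klf2: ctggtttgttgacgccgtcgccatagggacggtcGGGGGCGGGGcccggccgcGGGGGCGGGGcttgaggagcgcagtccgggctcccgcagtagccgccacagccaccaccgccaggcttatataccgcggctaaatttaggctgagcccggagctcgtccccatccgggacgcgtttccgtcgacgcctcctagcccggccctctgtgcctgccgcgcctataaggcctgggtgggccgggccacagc

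On GRCm38 the Zfp42 gene spans chr8:43295063-43306980, Nr0b1 chrX:86191764-86195947 and Klf2 chr8:72319033-72321656. Promoter windows were found for 6 of the 9 factors, namely Klf2, Klf4, Esrrb, Tfcp2l1, Zfp42 and Nr0b1, with 2 windows for Esrrb, and Klf5, Tbx3 and Prdm14 had none in the table used. The octamer was present in the Zfp42 window only, with its first base 186 bases before the start, and in 1.6% of the 32851 promoters of the same length. The KLF and SP element was present in 6 of the 7 windows, all but that of Nr0b1, and in 45.9% of all promoters. Neither the ESRRB element (AAGGTCA), the STAT element (TTCCNGGAA), the TCF and LEF element (CTTTGAT) nor the SOX element (CATTGT) was found in any of the 7 windows, against 4.08%, 0.913%, 3.21% and 10.7% of all promoters. A match is a description of the letters and not evidence of binding.

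Reads on genes ranged from 283461 to 907489 in the Direct RNA libraries and from 948657 to 2088592 in the cDNA libraries, and replicate 2 was the deeper library of every group. Levels are given in CPM, the reads of a gene per 1e6 reads on all genes. A floor of 3 reads is 1.44 to 10.6 CPM depending on the library, so a Day4 level of a few CPM rests on a handful of reads. Embryonic stem cell markers other than the members (Pou5f1, Sox2, Nanog, Utf1, Tdgf1 and Dppa5a) all had reads in Undiff, with a summed level of 9688 and 12074 CPM in Direct RNA and of 20631 and 23340 CPM in cDNA. Of these Tdgf1 (-7.10 and -7.83) had the lowest log2 fold changes to Day4. In Day4 that sum was 98.8 CPM in replicate 1 and 518 CPM in replicate 2 in Direct RNA, and 81.2 and 909 CPM in cDNA. Replicate 2 of Day4 thus held more stem cell transcripts than replicate 1 on both kits, and the part of this in the levels of the members was not tested. The RNA is from bulk cultures, so fewer cells that express a gene and less RNA per cell cannot be told apart.

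In Undiff, the factors spanned a wide range of levels. Per kb of the longest transcript, Zfp42 was the highest of the 9 in Direct RNA at 743 ± 80.3 CPM per kb (SD, n = 2), followed by Klf2 at 429 ± 8.95, and both stood above the next factor in every replicate. Esrrb (83.1 ± 10.8) and Nr0b1 (77.9 ± 29.4) followed and overlapped each other, as did Klf4 (33.7 ± 14.1) and Klf5 (18.4 ± 7.89). Tbx3, Tfcp2l1 and Prdm14 were the lowest, at between 8.52 and 12.5 CPM per kb, and each overlapped the next in order. In cDNA, Zfp42 was again the highest, at 539 ± 142 CPM per kb, while from Nr0b1 (24.9 ± 19.5) to Prdm14 (mean 2.30) every factor overlapped the next one. Klf2 held the sixth rank in cDNA, at 8.40 ± 0.582 CPM per kb. A nanopore read can span a whole transcript, and parts of this order depend on the division by length. By CPM alone, Zfp42 and Klf2 led in Direct RNA as well, while Esrrb (357 ± 46.5 CPM) stood clear of Nr0b1 (141 ± 53.2), and Tfcp2l1 (92.6 ± 29.5) lay above Tbx3 (62.1 ± 2.58) and Klf5 (61.7 ± 26.4) in mean. In cDNA Zfp42 was also the highest by CPM, Tfcp2l1 (99.1 ± 73.1 CPM) came next and Klf2 (15.5 ± 1.08) held the eighth rank, with Tbx3, Klf4 and Klf2 overlapping in turn.

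The first comparison asks how the factors changed from Undiff to Day4, on each kit separately. In Direct RNA 8 of the factors fell to a small part of their Undiff level. The log2 fold changes were from -6.24 to -3.73 for the 7 of them with Day4 reads, Prdm14 had 0 Day4 reads and was at least 5.96-fold lower, and Tbx3 did not pass the test. In cDNA Klf2, Klf4, Klf5, Esrrb, Zfp42 and Nr0b1 fell, with values from -6.31 to -2.44, while Tfcp2l1, Tbx3 and Prdm14 did not pass. Summed over the 9 factors, the Direct RNA libraries held 2979 and 3012 CPM in Undiff and 109 and 103 CPM in Day4, and the cDNA libraries 999 and 1628 CPM in Undiff and 29.6 and 86.6 CPM in Day4. Zfp42 alone took between 41.9% and 80.5% of the reads of the 9 factors in the Undiff libraries.

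A call needed an adjusted p-value of DESeq2 up to 0.05, a log2 fold change beyond 1 in either direction and 5 or more normalized counts on average, and all 9 factors had that mean count in both fits. In Direct RNA 8 of the 9 were called lower, where 7.67% of the 9646 genes tested were, and in cDNA 6 of the 9, where 9.24% of 10271 genes were. The median log2 fold change over the 9 was -4.02 in Direct RNA, or -3.94 with Prdm14 at its bound (below), against 0.03 over all genes tested, and -3.62 in cDNA against 0.00. The edgeR quasi-likelihood test called 9 of the 9 lower in Direct RNA (15.1% of all genes tested) and 8 in cDNA (15.6%). All Undiff replicates lay above all Day4 replicates for 9 factors in Direct RNA, where this held for 30.3% of all genes tested, and for 8 in cDNA (23.2% of all genes), with Tbx3 the exception. Without Day4 replicate 2, which held more stem cell transcripts, 5 of the 9 were called lower on each kit, where 3.14% of all genes were in Direct RNA and 3.93% in cDNA. Without Undiff replicate 2 the counts were 4 in Direct RNA (1.42% of all genes) and 3 in cDNA (4.38%), and without Undiff replicate 1 they were 7 (2.45%) and 3 (4.22%).

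**Figure D1:**
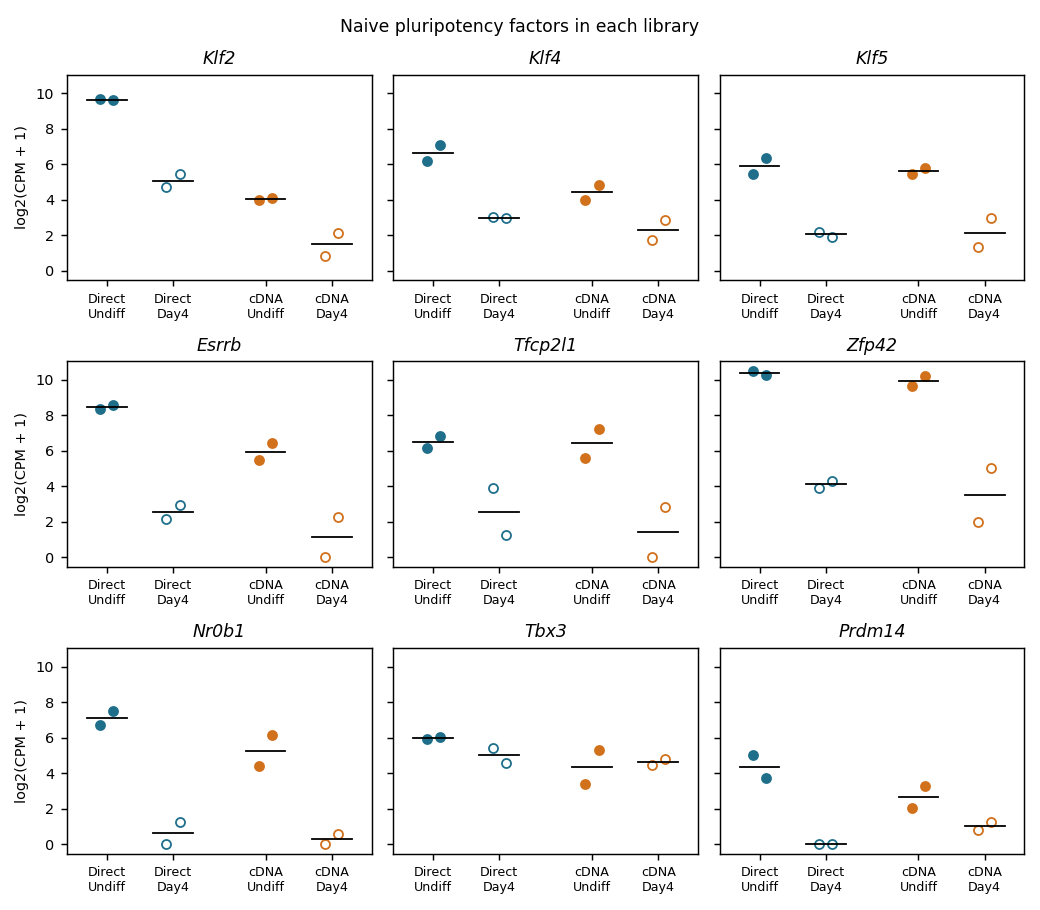
Level of each factor in each library as log2(CPM + 1), with 1 point for each replicate (filled for Undiff, open for Day4; blue for ONT Direct RNA, orange for ONT cDNA) and a line at the mean of both replicates. The Undiff points lie above the Day4 points on both kits in every panel but that of Tbx3, and the Klf2 points of cDNA Undiff lie below the Direct RNA Day4 points.

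Zfp42 (Rex1), a zinc finger gene derived from the YY1 family and widely used as a reporter of the naive state, was the most abundant of the factors in Undiff. Direct RNA counted 512 and 1144 reads in Undiff (1469 and 1261 CPM) and 4 and 14 in Day4 (14.1 and 19.0 CPM). In cDNA it had 763 and 2453 reads in Undiff (804 and 1174 CPM) and 4 and 65 in Day4 (3.03 and 31.3 CPM). The states stood far apart on both kits, and the Day4 replicates of cDNA differed widely. Its log2 fold change was -6.24 ± 0.43 (SE) in Direct RNA (adjusted p = 7.4e-45), and the cDNA value was -5.33 ± 1.08 (adjusted p = 3e-05). Without Day4 replicate 2 the cDNA value was -7.97.

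Nr0b1 (Dax1), an orphan nuclear receptor without a classical DNA-binding domain that binds POU5F1 and restrains it, all but disappeared. It had 36 and 162 reads in Direct RNA Undiff (103 and 179 CPM) and 0 and 1 in Day4. In cDNA it had 19 and 146 reads in Undiff (20 and 69.9 CPM) and, again, 0 and 1 in Day4. With 1 Day4 read on each kit, the pooled level was 161 times higher in Undiff in Direct RNA (exact counting interval 28.6 to 6390) and 184 times in cDNA (32.7 to 7329). The fitted log2 fold changes were -6.06 ± 0.99 (adjusted p = 6.4e-08) and -6.31 ± 1.06 (adjusted p = 1.7e-07).

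Esrrb, an orphan nuclear receptor that can take the place of Nanog in self-renewal, had 113 and 354 reads in Direct RNA Undiff (324 and 390 CPM) and 1 and 5 in Day4 (3.53 and 6.78 CPM). In cDNA the reads were 41 and 182 in Undiff (43.2 and 87.1 CPM) and 0 and 8 in Day4 (0 and 3.85 CPM). Both Undiff replicates lay far above Day4 on each kit. Esrrb changed by -5.73 ± 0.64 (log2) in Direct RNA (adjusted p = 7.4e-17) and by -4.93 ± 0.75 in cDNA (adjusted p = 4.9e-09). In cDNA the call was lost without either Undiff replicate, at -2.75 without replicate 1 (adjusted p = 0.45) and -2.42 without replicate 2 (adjusted p = 0.63).

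The Krüppel-like factors Klf2, Klf4 and Klf5 were each called lower on both kits. Klf2 had 280 and 708 reads in Direct RNA Undiff (804 and 780 CPM) and 7 and 31 in Day4 (24.7 and 42 CPM). Its cDNA reads were 14 and 34 in Undiff (14.8 and 16.3 CPM) and 1 and 7 in Day4 (0.759 and 3.37 CPM). The Undiff replicates lay close together on each kit, and the states did not overlap. The log2 fold change of Klf2 was -4.49 ± 0.39 in Direct RNA (adjusted p = 2.6e-28), and the cDNA value was -2.88 ± 0.93 (adjusted p = 0.022).

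Klf4, one of the factors used to reprogramme fibroblasts, had 25 and 120 reads in Direct RNA Undiff (71.7 and 132 CPM) and 2 and 5 in Day4 (7.06 and 6.78 CPM). In cDNA it had 14 and 58 reads in Undiff (14.8 and 27.8 CPM) and 3 and 13 in Day4 (2.28 and 6.26 CPM). The fold change was -3.73 ± 0.75 in Direct RNA (log2, adjusted p = 2.5e-05), and the cDNA value was -2.44 ± 0.81 (adjusted p = 0.027). Klf5, which also has a role in the trophectoderm, had 15 and 73 reads in Direct RNA Undiff (43 and 80.4 CPM) and 1 and 2 in Day4, a pooled ratio of 23.8 (exact counting interval 7.90 to 118). Its cDNA reads were 40 and 112 in Undiff (42.2 and 53.6 CPM) and 2 and 14 in Day4 (1.52 and 6.74 CPM). Both genes were thus at a few CPM in every Day4 library, and the log2 fold change of Klf5 was -3.94 ± 0.93 in Direct RNA (adjusted p = 0.00057), and the cDNA value was -3.62 ± 0.69 (adjusted p = 6.5e-06).

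The cDNA calls of Klf2 and Klf4 were lost without any 1 of the 4 cDNA libraries, with log2 fold changes of -3.39 to -2.12 for Klf2 and of -2.84 to -1.84 for Klf4. In Direct RNA the calls of Klf4 (-2.90, adjusted p = 0.24) and Klf5 (-2.92, adjusted p = 0.41) were lost without Undiff replicate 2, and that of Klf5 also without Day4 replicate 2 (-3.27, adjusted p = 0.11). When all libraries were thinned to the depth of the shallowest, the cDNA calls of all 3 genes were lost (Klf2 at -1.88, adjusted p = 0.74, Klf4 at -2.15, adjusted p = 0.63, and Klf5 at -3.31, adjusted p = 0.067).

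Tfcp2l1, a CP2 family factor downstream of STAT3, had 25 and 103 reads in Direct RNA Undiff (71.7 and 113 CPM) and 4 and 1 in Day4 (14.1 and 1.36 CPM). In cDNA it had 45 and 315 reads in Undiff (47.4 and 151 CPM) and 0 and 13 in Day4 (0 and 6.26 CPM). The states did not overlap on either kit, and the replicates differed several-fold in cDNA and in Direct RNA Day4. It was called lower in Direct RNA (-3.73 ± 0.81, adjusted p = 0.00012), a call that was lost without Undiff replicate 2 (-2.85, adjusted p = 0.32) or Day4 replicate 2 (-2.52, adjusted p = 0.14). In cDNA its log2 fold change was -3.67 ± 1.41 (adjusted p = 0.073), and it was called lower in 6 of 11 alternatives, among them edgeR (-5.10, adjusted p = 4.3e-17) and the fits without Day4 replicate 1 (-3.96) or replicate 2 (-6.86). It was at -2.38 without Undiff replicate 1 (adjusted p = 0.57) and at -1.91 without Undiff replicate 2 (adjusted p = 0.8).

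Prdm14, a PR-domain protein that represses FGF signalling and the de novo DNA methyltransferases, had the fewest reads. Direct RNA counted 11 and 11 reads in Undiff (31.6 and 12.1 CPM) and 0 and 0 in Day4, which makes Undiff at least 5.96-fold higher against a floor of 3 reads over both Day4 libraries. In cDNA it had 3 and 18 reads in Undiff (3.16 and 8.62 CPM) and 1 and 3 in Day4, a pooled ratio of 5.87 (exact counting interval 1.98 to 23.5). The fall passed the test in Direct RNA (adjusted p = 0.024). This call was lost when libraries were thinned to the depth of the shallowest (-3.41, adjusted p = 0.14). It was also lost without any 1 of the 4 libraries, where the log2 fold change lay between -3.81 and -2.47. In cDNA the adjusted p was 0.29, and the level was close to the floor of the libraries.

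Tbx3, a T-box gene that is active in naive ESCs and again in extraembryonic endoderm, limb and other tissues of the embryo, was the 1 factor that DESeq2 called on neither kit. It had 21 and 58 reads in Direct RNA Undiff (60.3 and 63.9 CPM) and 12 and 17 in Day4 (42.3 and 23 CPM). In cDNA it had 9 and 82 reads in Undiff (9.49 and 39.3 CPM) and 28 and 56 in Day4 (21.2 and 27 CPM). The Undiff replicates lay above the Day4 ones in Direct RNA and on both sides of them in cDNA. The log2 fold change was -1.04 ± 0.65 in Direct RNA (adjusted p = 0.4), with an unshrunken 95% interval of -2.44 to 0.25 and a value of -0.61 without Day4 replicate 2 (adjusted p = 0.98), and -0.33 ± 0.69 in cDNA (adjusted p = 0.92), with an interval of -1.77 to 1.08.

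Tbx3 therefore took a larger share of what remained. It made up between 0.949% and 2.41% of the reads of the 9 factors in the Undiff libraries and more in Day4. The Day4 shares were 38.7% (95% Wilson interval 23.7 to 56.2) and 22.4% (14.5 to 32.9) in Direct RNA, and 71.8% (56.2 to 83.5) and 31.1% (24.8 to 38.2) in cDNA. Per kb it held the second rank in cDNA Day4 (4.84 ± 0.811 CPM per kb) and the third in Direct RNA Day4 (6.56 ± 2.74). By CPM alone it held the first rank in cDNA Day4 (24.1 ± 4.04 CPM) and the second in Direct RNA Day4 (32.7 ± 13.6 CPM), where its replicates overlapped those of Zfp42 and of Klf2, respectively. edgeR called Tbx3 lower in Direct RNA (-1.16, adjusted p = 0.043) and not in cDNA (-0.37, adjusted p = 0.64), and without cDNA Undiff replicate 2 the DESeq2 value in cDNA was 0.83. An exon of Tbx3os1 overlaps Tbx3 on the opposite strand in GENCODE, and reads from either strand cannot be told apart in cDNA if the strand was not used in counting. The sources name strand-specific gene counting for Direct RNA only, and counted the exons of cDNA without strand.

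**Figure D2:**
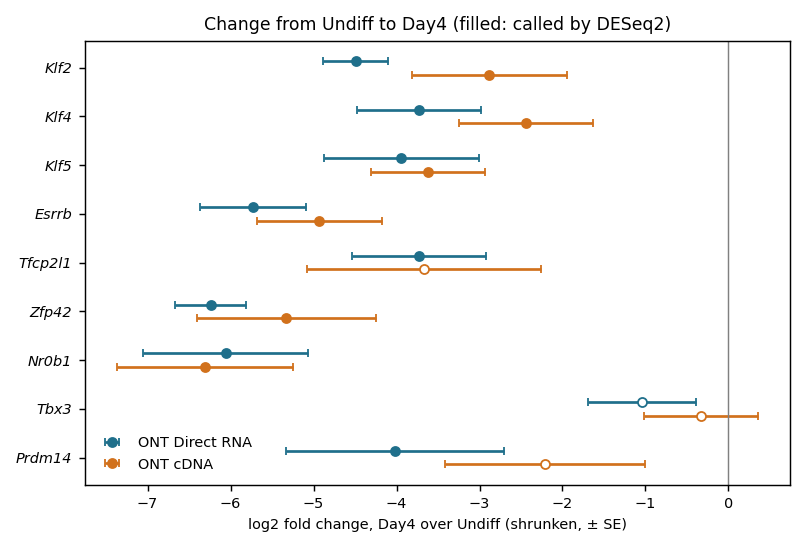
Shrunken log2 fold change from Undiff to Day4 with its SE for each factor in ONT Direct RNA (blue) and ONT cDNA (orange), from DESeq2 with 2 replicates for each state. Filled points were called. Prdm14, with 0 reads in Direct RNA Day4, is drawn there at its fitted value. All values lie below 0, with Tbx3 at -1.04 and -0.33 nearest to it.

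The second comparison asks whether the change differed between kits. Each factor was tested for an interaction of kit and state over all 8 libraries, and 0 of the 9 passed at an adjusted p-value of 0.05, where 0.0116% of the 17267 genes tested did (2 genes). At an unadjusted p under 0.05 there were also 0 of the 9, against 161 of all genes, and edgeR called 0 of the 9 and 14 of all genes. The smallest unadjusted p of the 9 was that of Klf2, where Day4 held 4.73% of the pooled Undiff level in Direct RNA and 14.9% in cDNA, an interaction of 1.45 on the log2 scale (95% interval -0.17 to 3.07, unadjusted p = 0.08). Without cDNA Day4 replicate 2, which held 7 of the 8 Klf2 reads of cDNA Day4, this value was 0.05, and without the other libraries in turn it lay between 1.20 and 2.02. Intervals for the other 8 all included 0 and reached from -5.78 at the lowest (Tfcp2l1) to 7.68 at the highest (Prdm14), so that differences of several-fold were not detectable with these libraries.

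The third comparison asks how the kits differed within 1 state, in the 4 Undiff libraries. Klf2 and Esrrb were lower in cDNA than in Direct RNA, Klf2 by far the more so. Zfp42, Klf5 and Tfcp2l1 had fitted values above 0 and did not pass the test. The fits scale the libraries by the size factors of DESeq2 and not by CPM, and direction depends on this scaling. By mean CPM, Zfp42 (1365 in Direct RNA, 989 in cDNA) and Klf5 (61.7 and 47.9) were lower in cDNA. Tfcp2l1 (92.6 and 99.1) was higher. DESeq2 called 2 of the 9 factors lower in cDNA, where 12% of 9437 genes were called, and 0 higher, where 17.5% of genes were called. None was higher at an unadjusted p under 0.05 or with edgeR either (0 and 0). Klf2 was at 804 and 780 CPM in Direct RNA and at 14.8 and 16.3 CPM in cDNA. Its fitted log2 difference, which is shrunken and not the ratio of these CPM, was -4.71 ± 0.41 (adjusted p = 9.8e-28). This was the 34th lowest value among the 9437 genes tested, 0.36% of which lay at or below it.

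Esrrb was at 324 and 390 CPM in Direct RNA and 43.2 and 87.1 CPM in cDNA. Its fitted log2 difference, again not the ratio of these CPM, was -1.58 ± 0.43 (adjusted p = 0.0021). The call was lost without either Direct RNA replicate (-1.77 and -1.33) or without cDNA replicate 1 (-1.15). Klf4 differed by -1.38 ± 0.58 (adjusted p = 0.082), was called with edgeR (-1.46, adjusted p = 0.0048), and was at -0.75 without Direct RNA replicate 2 (adjusted p = 0.98) and at -0.98 without cDNA replicate 1 (adjusted p = 0.51). The other factors had fitted values from -0.82 for Nr0b1 and Prdm14 to 0.83 for Tfcp2l1. Zfp42 was at 0.37 (unshrunken 95% interval -0.27 to 1.02) and Klf5 at 0.40 (-0.71 to 1.56), although the mean CPM of both was lower in cDNA.

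The share of Klf2 in the reads of Klf2, Klf4 and Klf5 together was also lower in cDNA. In Direct RNA it was 87.5% (95% Wilson interval 83.4 to 90.7) and 78.6% (75.8 to 81.1) in Undiff, and 70% (39.7 to 89.2) and 81.6% (66.6 to 90.8) in Day4. In cDNA it was 20.6% (12.7 to 31.6) and 16.7% (12.2 to 22.4) in Undiff, and 16.7% (3.01 to 56.4) and 20.6% (10.3 to 36.8) in Day4. The intervals of the kits were apart in Undiff and for replicate 2 of Day4, and overlapped for replicate 1 of Day4, with 10 and 6 reads. The Klf2 transcript is short, at 1847 bases, and has the highest GC content of the 9 at 61.6%, while that of Zfp42 has almost the same length (1837 bases) and the lowest GC content (46.4%). Klf4, Esrrb, Nr0b1 and Tbx3 lay between 54.2% and 55.2% and Klf5, Tfcp2l1 and Prdm14 between 47% and 50.5%.

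Over the 9412 genes with a transcript (99.7% of those tested), the kit difference in Undiff had a Spearman correlation of -0.164 with GC content and of -0.316 with length, a description across genes that share the same 4 libraries. The median difference was -1.33 over the 371 genes with at least 60% GC, of which 32.1% were called lower in cDNA, and 0.30 over the 2433 genes below 45%. Klf2 lay well below the median of its GC class, with 4 of these 371 genes, itself included, at or below its value. The part of GC content in the values of Klf2 and Esrrb was not tested.

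**Figure D3:**
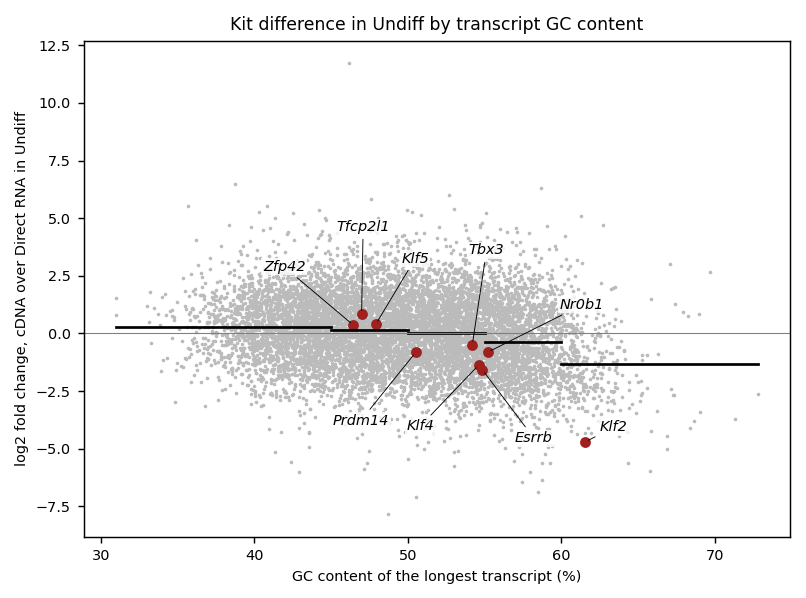
Shrunken log2 fold change of ONT cDNA over ONT Direct RNA in Undiff against the GC content of the longest transcript for all genes tested (grey) and the 9 factors (red, named). Black lines give the median of each GC class, from 0.30 below 45% to -1.33 at 60% and above, and Klf2 lies at -4.71.

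The genes that work with these factors were counted in the same way. All 4 core factors were called lower on both kits. Pou5f1 had 706 and 1982 reads in Direct RNA Undiff and 2 and 46 in Day4, a log2 fold change of -5.07 ± 1.03 (adjusted p = 3.5e-05), with -5.08 in cDNA (adjusted p = 0.00049). Sox2 changed by -4.33 and -4.65, Nanog by -5.06 and -3.97, and Sall4, the zinc finger partner of POU5F1, by -4.81 and -4.05, in Direct RNA and cDNA respectively. Of 9 other genes known from the naive state, 8 of 9 tested fell in Direct RNA (88.9%, beside 7.67% of all genes tested) and 6 of 8 tested in cDNA (75%, beside 9.24%). They included Fgf4, the autocrine ligand that drives ESCs out of the naive state, which had 56 and 146 reads in Direct RNA Undiff and 0 in Day4 (at least 54.7-fold lower), while Pecam1 did not pass on either kit (-1.29 and -0.77).

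Some genes of the signalling inputs were called. Of 6 LIF-STAT3 genes, 2 fell in Direct RNA (33.3%, beside 7.67% of all genes tested) and 1 in cDNA (16.7%, beside 9.24%). Socs3, the feedback inhibitor that STAT3 induces, changed on both kits, by -2.52 in Direct RNA (adjusted p = 7.6e-05) and by -3.10 in cDNA (adjusted p = 6.5e-07), while Stat3 itself was at -0.64 and -0.14, Lifr at -1.28 and -0.77 and the kinase Jak1 at 1.09 and 1.01, none of which passed. Of 5 WNT and TCF7L1 genes, 1 was called in cDNA (Gsk3b, higher by 1.55, beside 8.69% of all genes called higher) and 0 in Direct RNA by DESeq2 (1 at an unadjusted p under 0.05, 0 with edgeR). The repressor Tcf7l1 was at -0.67 and -0.76, and Ctnnb1 was at 0.90 (adjusted p = 0.012, under the limit of 1 for the fold change) and 0.97. The median was -0.93 and -0.48 for LIF-STAT3 and 0.09 and 0.97 for WNT, in Direct RNA and cDNA.

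Of 9 genes known from the formative and primed states that follow the naive one, 5 had enough reads to be tested in Direct RNA and 7 in cDNA. Otx2 and Dnmt3b were called lower on both kits (40% and 28.6% of those tested, beside 7.67% and 9.24% of all genes). Otx2, a homeobox factor of the formative epiblast, had 18 and 24 reads in Direct RNA Undiff and 0 and 2 in Day4, and in cDNA 38 and 21 reads and 0 and 0 (at least 22-fold lower). Dnmt3a, the other de novo methyltransferase, was at 0.29 and 1.01 and did not pass. Fgf5, a marker of the formative state, had 0 reads in cDNA Undiff and 9 and 30 in Day4 and was called higher there (at least 11.6-fold), and had 0 and 4 reads in Direct RNA Undiff and 3 and 15 in Day4 (adjusted p = 0.44).

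The paralogues of the factors differed among themselves. Of 14 other Krüppel-like genes, 9 were tested in Direct RNA with 1 called lower (Klf9, -1.98), and 10 in cDNA with 3 called lower (Klf3, Klf10 and Klf16). Klf3, a repressor of the family, fell in cDNA (-3.34, adjusted p = 6.2e-06) and was at -1.25 in Direct RNA with an adjusted p of 0.11, and Klf11 was at -0.17 and 1.34. All 9 tested genes of the list were below 0 in Direct RNA (-2.21 to -0.17), as were 6 of 10 in cDNA (-3.34 to 1.94). The median of the list was -1.25 and -1.16, beside a median of 0.03 and 0.00 over all genes tested, and 11.1% and 30% of its tested genes were called lower, beside 7.67% and 9.24% of all genes.

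Among 16 other T-box genes 3 were tested on each kit and Tbx2, the closest paralogue of Tbx3, and Tbx5 were called higher on both, where 9.54% of all genes tested were in Direct RNA and 8.69% in cDNA. Tbx2 had 0 reads in every Undiff library and 82 and 149 in Direct RNA Day4 (at least 94.7-fold higher), with 11 and 26 in cDNA Day4 (at least 11-fold higher). Tbx5, a factor of heart and forelimb, was also at 0 in Undiff and had 11 and 11 reads in Direct RNA Day4 and 22 and 42 in cDNA Day4 (at least 9.02-fold and 19.1-fold higher). Mga, which carries a T-box beside a helix-loop-helix domain, was at -0.36 and -1.19 and did not pass.

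Of the paralogues of the remaining factors few had reads enough. Grhl2, a grainyhead factor of the CP2 group, was at -1.77 in Direct RNA (adjusted p = 0.45) and fell in cDNA (-3.25, adjusted p = 0.0036), and Tfcp2 was at 1.05 and 0.59. Yy1, from which Zfp42 is derived, was at 0.33 and 0.44 and did not pass. Yy2, at -1.43, had too few reads to be tested in Direct RNA and did not pass in cDNA (-1.08). Esrra had between 3 and 17 reads in the Direct RNA libraries (0.64, adjusted p = 0.86) and 0 in all cDNA libraries, Esrrg had 0 in Undiff and between 2 and 5 in every Day4 library, and Nr0b2 had 2 reads in all. Of 14 other PRDM genes 1 was called, Prdm6, higher in Direct RNA (1 of 4 tested, beside 9.54% of all genes), with 0 reads in Undiff and 10 and 24 in Direct RNA Day4, and Prdm4 (-0.12 and -1.88) and Prdm2 (-0.31 and 0.51) did not pass.

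**Figure D4:**
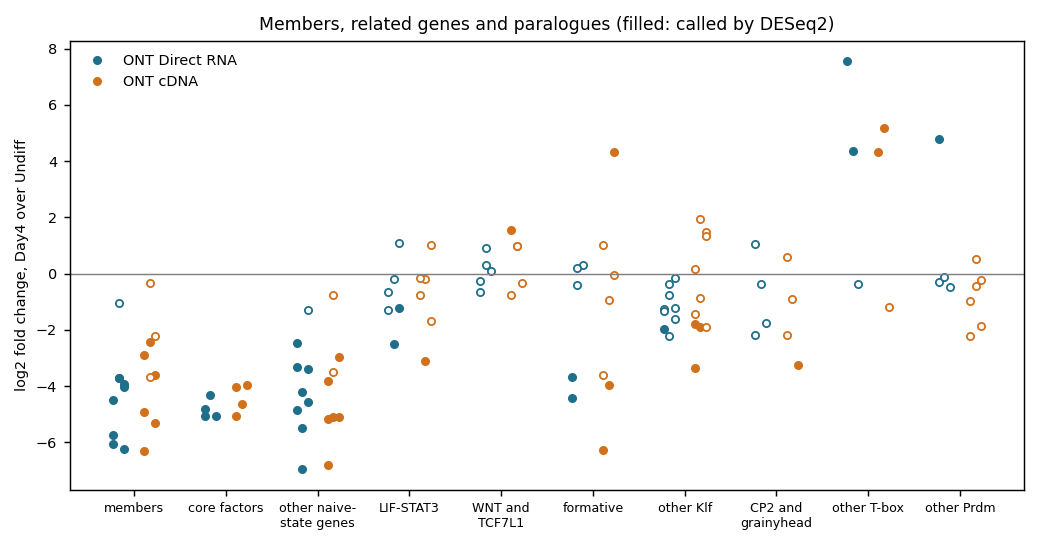
Shrunken log2 fold change from Undiff to Day4 of the tested genes of each list, in ONT Direct RNA (blue) and ONT cDNA (orange), with filled points for genes called by DESeq2. The members other than Tbx3, the 4 core factors and the other naive-state genes but Pecam1 lie below -2, and Tbx2 and Tbx5 of the T-box list lie above 4.

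Markers of some other cell types rose from Undiff to Day4, where most of the factors fell. Summed over 10 markers of extraembryonic endoderm, Undiff was at 17.2 and 28.7 CPM in Direct RNA (6 of 10 with reads; Gata6, Afp, Ttr and Cubn at 0) and Day4 at 1058 and 685 CPM, and the cDNA values were 5.27 and 14.4 against 209 and 252 CPM. Gata6 had 0 reads in every Undiff library and was at least 150-fold higher in Direct RNA Day4 and 64.7-fold in cDNA, while Dab2, an endocytic adaptor, rose the least of those tested on both kits (3.20 and 3.06). Amn lay the other way and did not pass, at -2.41 in cDNA (adjusted p = 0.24), and had too few reads to be tested in Direct RNA. Summed over 7 markers of mesenchyme and fibroblasts, Direct RNA was at 201 and 140 CPM in Undiff and 3983 and 2435 CPM in Day4, with Col3a1 at least 472-fold higher, and cDNA at 48.5 and 62.2 against 647 and 765 CPM. Vim, the intermediate filament vimentin, which ESCs also express, rose by 2.36 and 2.72, while Thy1 was at -2.85 in cDNA (adjusted p = 0.16) and had too few reads to be tested in Direct RNA. The 7 neural markers were at 178 and 158 CPM in Direct RNA Undiff and 60 and 90.8 CPM in Day4, and of these Tubb3 was called lower on both kits (-3.37 and -2.42) while Nes did not pass (1.99 and 2.24). Most of this sum in Undiff was Tubb3, and the other 6 markers were at 14.3 and 30.9 CPM in Direct RNA Undiff and 49.4 and 75.9 CPM in Day4, and at 4.22 and 12.4 against 19.7 and 20.2 CPM in cDNA. The part of these cell types in the levels of the factors was not tested.

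The remaining marker lists differed in direction. Of 4 genes of simple epithelium, Cdh1 (-3.63 and -4.37) and Epcam fell on both kits and Krt18 rose on both (1.97 and 1.13). The sum of 5 trophectoderm markers lay between 19 and 58.2 CPM in all 8 libraries, with Krt7 at 0.57 and 0.50 and Cdx2 and Elf5 at 0 in Direct RNA Undiff. Germ cell markers were at 129 and 208 CPM in Direct RNA Undiff and 7.06 and 17.6 CPM in Day4, and at 63.2 and 191 against 6.07 and 25.5 CPM in cDNA, with Tfap2c called lower in Direct RNA (-3.78) and not in cDNA (-3.10, adjusted p = 0.11), and Ddx4 likewise (-3.77 and -2.18). Of the 3 markers of cells that resemble the embryo after its first division, 1 had enough reads to be tested in Direct RNA and 2 in cDNA. DESeq2 called 0 on either kit, where 7.67% and 9.24% of all genes tested were called lower. In Direct RNA 2 of the 3 had an unadjusted p under 0.05 with DESeq2 and edgeR called 1, and in cDNA both counts were 0. The sum of the 3 markers was at 45.9 and 25.3 CPM in Direct RNA Undiff and 3.53 and 4.07 CPM in Day4, and at 22.1 and 73.7 against 7.59 and 48.1 CPM in cDNA. Zscan4c was at -2.34 and -1.06, while Zscan4d had between 0 and 9 reads in the Direct RNA libraries and was at -1.07 in cDNA, and Zfp352 had no more than 2 reads in any library.

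Across the 8 libraries most of the factors varied together. The Pearson correlation of log2(CPM + 1) between a factor and the mean standardised profile of the other 8 was between 0.884 and 0.984 for 7 factors, 0.795 for Klf2 and 0.494 for Tbx3, a description over 8 libraries that share 2 states and 2 kits. Among 4233 other genes with at least 20 CPM on average in Undiff on each kit, those closest to the mean profile of the 9 factors were Gart (r = 0.993), Aen (0.990), Mettl16 (0.989), Helb (0.988) and 1700007K13Rik (0.988). Gart, which encodes a trifunctional enzyme of purine synthesis, was at 628 ± 11.3 CPM in Direct RNA Undiff and 110 ± 1.28 in Day4, and at 263 ± 107 and 72 ± 16 CPM in cDNA. Helb, a DNA helicase, was at 61.6 ± 14.1 and 5.56 ± 2.11 CPM in Direct RNA and at 22.3 ± 9.13 and 2.82 ± 0.773 CPM in cDNA. All 5 were lower in cDNA than in Direct RNA and lower in Day4 than in Undiff by their mean CPM, as the mean of the factors was.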

How the data were processed

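Gene-level read counts of 8 ONT libraries, counted by the authors with htseq-count on the UCSC annotation after alignment to mm10 with minimap2, were used as deposited, with no normalization. Direct RNA had been counted by strand, and the setting for gene counts of cDNA was not given in the sources used here, where exons of cDNA were counted without strand. Reads that htseq-count gave to no gene or to several genes were left out. Ambiguous reads were 2.16% to 2.33% of reads in features in Direct RNA and 7.65% to 8.45% in cDNA. Libraries were grouped by their labels.

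States were compared on each kit with DESeq2 1.42.0 in R 4.3.3 (Wald test, shrunken fold changes, no Cook's cutoff or independent filtering, as in the methods of the study). Adjusted p-values come from this test over all genes unless edgeR is named. Kits were compared in the 4 Undiff libraries with the same settings, and the interaction of kit and state was fitted on 8 libraries with unshrunken values, calling by adjusted p-value alone. The alternatives were edgeR 4.0.16 (quasi-likelihood, TMM), TMM factors in DESeq2, no shrinkage, at least 10 reads in sum, a replicate block, libraries thinned to 283461 reads, each library left out, state as a covariate in 8 libraries for the kits, and the adjusted p-value alone. Levels by CPM alone and the neural sum without Tubb3 were added after seeing the data.

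The members and gene lists were chosen with earlier results of these data known. The text names the members, Pou5f1, Sox2 and Nanog, the lowest and the highest gene of each list by mean log2 fold change over both kits among genes with a mean count of at least 5, all genes of lists with fewer than 4, and the 5 genes most like the members. Stat3, Lifr, Gsk3b, Dnmt3b, Fgf5, Klf9, Klf10, Klf16, Tbx5, Prdm6, Amn, Thy1 and Epcam were named after their values were seen.

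The methods describe 2 replicate cultures for each state and do not say whether replicate numbers match across kits, so the numbers were not taken to pair libraries. Replicates of a group differed by more than sampling noise (chi-square per degree of freedom between 2.67 and 14.8 over genes with enough reads), and all were kept. Counting intervals are at 95% and, like the floor of 3 reads, cover counting error only and not the spread between libraries. In cDNA, PCR copies can also be counted more than once. Transcripts came from GENCODE vM21 (GRCm38, the same assembly as mm10), with 98.4% of the symbols matched, and promoters from RefSeq.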

Additional observations from a re-analysis of the deposited data

How the results depend on the processing

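The count of members called lower kept within 1.5 times in Direct RNA (7 to 9 of 9) and cDNA (4 to 8) under edgeR, TMM factors, no shrinkage, the filter of 10 reads, the replicate block, thinning and the adjusted p-value alone. With the replicate block 7 were called in Direct RNA (4.02% of all genes) and 5 in cDNA (7.57%), where Tfcp2l1 gained a call (-4.97) and Klf2 and Klf4 lost theirs, as Prdm14 did in Direct RNA. The numbers are not known to pair libraries: over 1395 genes the deviations of same-numbered libraries correlated at 0.214 and 0.501 between states (Direct RNA, cDNA) and at 0.124 (Undiff) and -0.416 (Day4) between kits. With this block, calls among the lists changed by over 1.5 times for other naive-state genes (8 to 4 in Direct RNA), LIF-STAT3 (2 to 1 in Direct RNA), formative genes (lower 2 to 1 on both kits, higher 1 to 0 in cDNA), other Krüppel-like genes (1 to 0 in Direct RNA), T-box genes (2 to 0 and 2 to 1), extraembryonic endoderm (5 to 3 and 4 to 2), mesenchyme (6 to 3 and 6 to 2), epithelium (higher 2 to 1 in Direct RNA) and germ cells (2 to 1 and 0 to 1), Direct RNA before cDNA. Leaving out 1 library gave 4 to 7 members in Direct RNA, lowest without Undiff replicate 2, and 3 to 5 in cDNA, lowest without either Undiff replicate. Between kits in Undiff the counts were 2 or 3, also 2 with the replicate block, and 1 to 2 without 1 library. For kit by state 0 members were called in all 14 alternatives, among them a block with the Day4 numbers crossed, chosen after seeing the data.

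Signs turned for values that had not passed the test. In cDNA Tbx3 was at 0.01 when thinned and between -0.98 and 0.83 without 1 library. The kit by state difference turned when thinned for Klf5 (-0.47), Zfp42 (-0.08) and Nr0b1 (1.68), with the crossed replicate block for Zfp42 (-0.37), and without 1 library for Klf5 (-0.66 to 1.18 over the 8 such fits), Esrrb (-2.98 to 1.57), Tfcp2l1 (-5.50 to 1.00), Zfp42 (-2.14 to 0.92) and Nr0b1 (-1.26 to 0.62). The kit difference in Undiff turned without 1 library for Klf5 (-0.05 to 0.95), Tfcp2l1 (-0.01 to 1.44) and Tbx3 (-1.53 to 0.17). The causes were not tested.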
